A study of Caenorhabditis elegans with 52 samples.

Results

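piRNA levels were followed over the first 4 h of TOFU-5 depletion in Caenorhabditis elegans carrying the disl-2(how27) mutation. The members are the 6 small RNA libraries of that strain taken at 0, 2 and 4 h, with 2 libraries at each time, chosen by their labels among the 52 samples of the series. A table of 42 libraries gives their piRNA levels, and 20 of those libraries form the time course. The question addressed was how much of the piRNA pool, and which piRNAs and piRNA classes, lay lower 4 h after depletion began.

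piRNAs are small RNAs of the germline that bind the Piwi protein PRG-1 and guide it to transcripts that become silenced. In C. elegans most are transcribed as short single units from a pair of broad clusters on chromosome IV, and TOFU-5 belongs to the complex that binds upstream of them and is needed for their transcription. DISL-2 is the worm homolog of DIS3L2, an exonuclease that degrades RNAs from the 3′ end and prefers RNAs carrying added uridines. Hermaphrodites make sperm before adulthood and oocytes as adults, and the deposited table marks piRNAs as Spermatogenic, Oogenic or neither.

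The animals carried gfp::aid::tofu-5(how48) on chromosome I, which puts an auxin-inducible degron on TOFU-5, together with the transgene sun-1p::mcherry::tirI, also on chromosome I, and disl-2(how27) on chromosome III. TIR1 directs degron-tagged proteins to degradation when auxin is present. Its sun-1 promoter is active in the germline, so depletion elsewhere is not part of the design. RNA came from whole day 1 adults grown to that stage on bacteria, and 4 mM IAA (auxin) is the labelled treatment of every library, those at 0 h included. The comparison strain carried the same tofu-5 and TIR1 alleles with wild-type disl-2, and had the same label, times and number of libraries. The small RNAs were treated with the phosphatase PIR-1 before library construction. The table lists piRNAs and no mRNA, so neither the tofu-5 depletion nor the disl-2 mutation could be checked in it. In whole animals, fewer germ cells and less piRNA per germ cell cannot be told apart. No library of either degron strain is labelled as untreated. Hours of depletion and any further hours of adult age therefore cannot be told apart either, for the pool or for the classes.

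The table listed 14052 piRNAs in the time course, of which 1038 were at 0 in all 6 libraries and 8243 were detected in all 6. Levels are in RPM, the reads of a piRNA scaled by the library's sequencing depth. The 6 libraries held between 10851356 and 24548816 reads, and the 2 h libraries were the shallowest, at 13100372 and 10851356. A level of 0 allows up to 3 reads, which is between 0.122 and 0.276 RPM, and such limits cover counting error only. Tests covered the 4112 piRNAs whose mean over the 20 libraries reached 1 RPM. These held 93.3% of the piRNA RPM of the 6 libraries. The other 9940 were too low to test. Of those tested, 1473 were Spermatogenic, 764 Oogenic and 1875 carried no class. Reads shared with another locus contributed to 1122 of them (27.3%), and those named below are marked as sharing reads.

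The 0 h libraries stood apart from each other. The median piRNA lay 0.38 higher on the log2 scale in replicate 2 than in replicate 1 at 0 h, against −0.18 at 2 h and 0.0054 at 4 h. The chi-square statistic per degree of freedom between replicates was 5.94 at 0 h, 3.03 at 2 h and 2.72 at 4 h, where 1 is the value for sampling noise alone. Every difference from 0 h therefore depends on which 0 h library is weighed, and the values without each are given beside the main results. Whether replicates were separate cultures is not labelled, and the spread that the p-values rest on may be technical.

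The summed piRNA level at 4 h lay within the range set by the 0 h libraries. The sums were 33597 and 43249 RPM at 0 h, 34626 and 31573 RPM at 2 h, and 35571 and 34454 RPM at 4 h. Both 4 h libraries lay between the 0 h libraries. The 4 h mean was 91.1% of the 0 h mean, a log2 difference of −0.12 ± 0.18 (SE, n = 2 at each time). The slope over the 3 times was −0.031 on the log2 scale per h, with p = 0.511 in a two-sided exact permutation test over the 6 libraries. Without 0 h replicate 2 the slope was 0.019 per h, and without replicate 1 it was −0.059 per h. At 6 h the sums were 24945 and 26886 RPM and at 12 h 21627 and 19568 RPM, all below each library of the first 4 h. These were 67.4% and 53.6% of the 0 h mean.

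**Figure D1:**
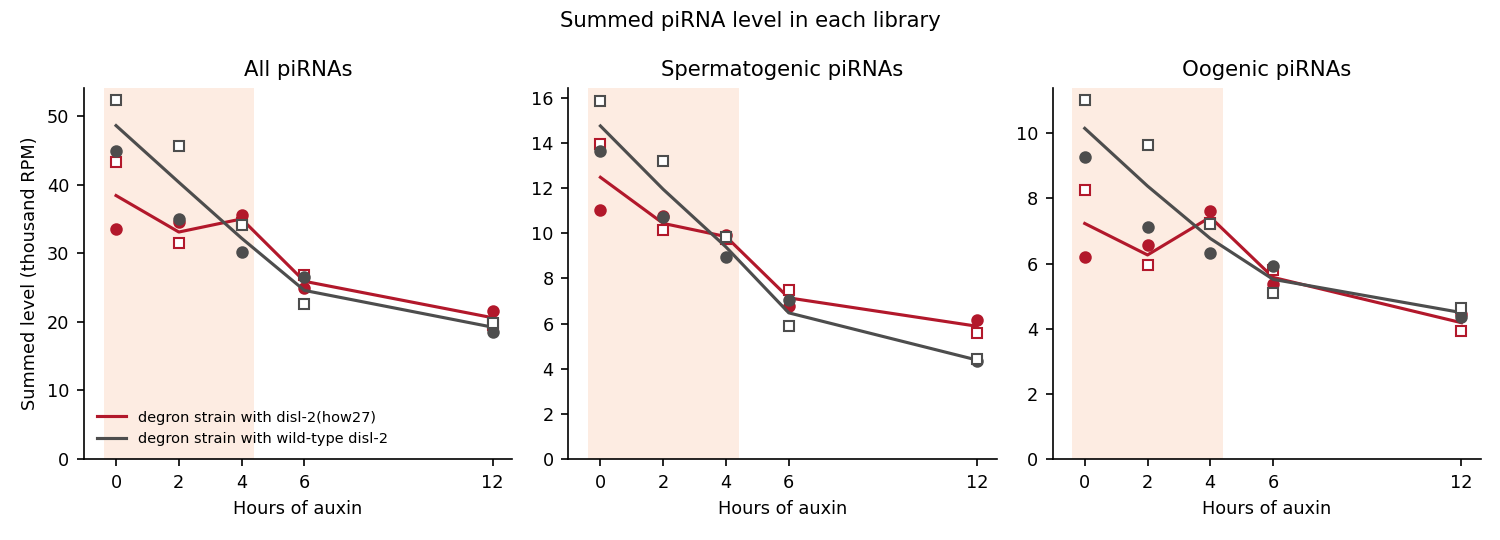
Summed piRNA level in RPM against hours of auxin for the disl-2(how27) strain and the strain with wild-type disl-2, with 1 point per library (filled circles are replicate 1, open squares replicate 2), a line through the means and the first 4 h shaded. The disl-2(how27) libraries at 4 h (35571 and 34454 RPM) sit between those at 0 h (33597 and 43249 RPM), and the libraries at 6 and 12 h sit lower.

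No single piRNA passed the test from 0 to 4 h. Each was fitted with limma on log2(RPM + 0.5), and 0 of 4112 had a Benjamini-Hochberg adjusted p under 0.05 in either direction (0% called), with a smallest adjusted p of 0.439. At an unadjusted p under 0.05, 354 lay lower (8.61%) and 75 higher (1.82%). Limma voom on estimated reads likewise called 0, with 413 lower and 94 higher at an unadjusted p under 0.05. The median difference was −0.18 on the log2 scale, and 2808 of 4112 piRNAs (68.3%) lay below 0. Without 0 h replicate 1 the median was −0.37 and 76.6% lay below 0. Without 0 h replicate 2 the median was 0.0085 and 48.8% lay below 0. The excess on the low side, in these counts as well, therefore depends on the 0 h library. Rescaling the libraries to equal medians brought the median to 0.039. Both 4 h libraries lay below both 0 h libraries for 1307 piRNAs (31.8%) and above both for 508 (12.4%).

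The fit called nothing, and its intervals bound the difference of many single piRNAs. The median standard error of a piRNA's difference was 0.31, which gives a 95% interval of ±0.63 on the log2 scale. For 2810 of 4112 piRNAs the 95% interval lay wholly above −1, and for the rest it did not. These intervals are taken singly and do not bound a loss shared by most piRNAs, whose median moved with the 0 h library left out. For 27 piRNAs the estimate was below −1, and for 0 it was above 1.

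Spermatogenic piRNAs made up less of the pool at 4 h than at 0 or 2 h, and Oogenic piRNAs more. The Spermatogenic share of the summed piRNA level was 32.8% and 32.2% at 0 h, 31.0% and 32.1% at 2 h, and 27.9% and 28.3% at 4 h. Both 4 h libraries lay below all 4 earlier ones. The slope of the log2 share was −0.052 per h, with p = 0.0222 in a two-sided exact permutation test over the 6 libraries, the smallest p the design allows. Adjusted over the 7 shares examined (3 classes and 4 positions) it was 0.0778, which misses 0.05. A share does not depend on how a library is scaled, and leaving out either 0 h library kept the slope between −0.059 and −0.054 per h.

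The Oogenic share was 18.5% and 19.1% at 0 h, 19.0% and 18.9% at 2 h, and 21.38% and 21.03% at 4 h. Here too the 4 h libraries stood clear of the earlier ones, on the high side. The slope of the log2 share was 0.044 per h (exact permutation p = 0.0667, adjusted over the 7 shares 0.117). piRNAs with no class held 48.7% and 48.7% at 0 h, 50.0% and 49.1% at 2 h, and 50.7% and 50.6% at 4 h (exact permutation p = 0.0222, adjusted 0.0778).

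In RPM, the summed Spermatogenic level was 11025 and 13930 at 0 h, 10744 and 10126 at 2 h, and 9939 and 9761 at 4 h. Both 4 h sums lay below all 4 earlier sums. The 4 h mean was 78.9% of the 0 h mean, a log2 difference of −0.33 ± 0.17 (SE, n = 2 at each time), and the slope had an exact permutation p of 0.0222 that became 0.156 when adjusted over the 7 sums. That slope was −0.083 on the log2 scale per h, −0.11 without 0 h replicate 1 and −0.041 without 0 h replicate 2. The summed Oogenic level was 6207 and 8259 RPM at 0 h, 6577 and 5953 RPM at 2 h, and 7605 and 7247 RPM at 4 h. These overlapped, with a log2 difference of 0.052 ± 0.21 (SE, n = 2 at each time). The ratio of the Spermatogenic to the Oogenic sum was 1.78 and 1.69 at 0 h, 1.63 and 1.70 at 2 h, and 1.31 and 1.35 at 4 h.

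**Figure D2:**
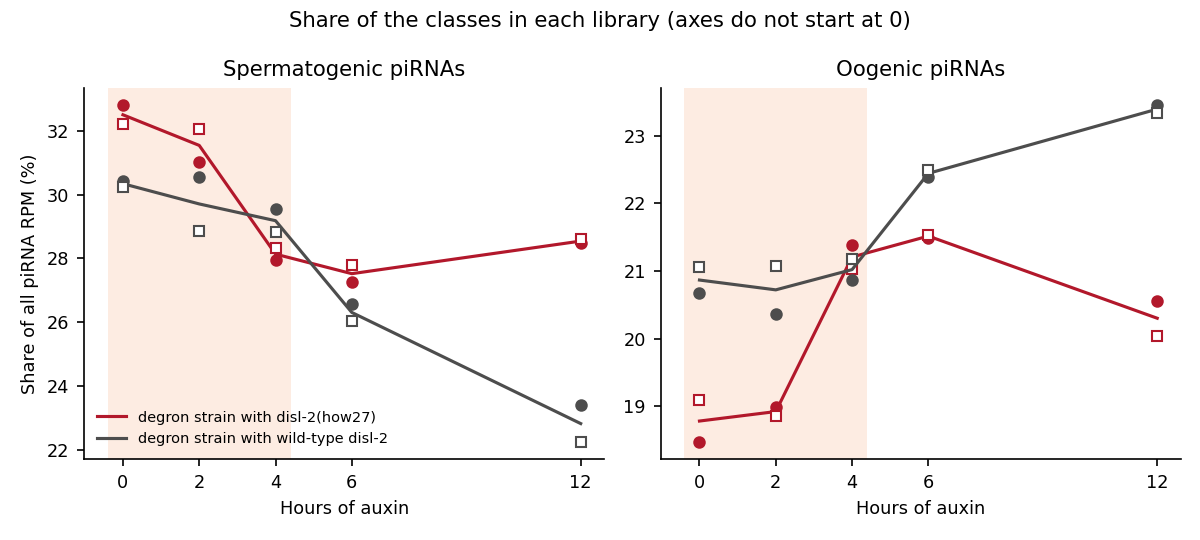
Share of the summed piRNA level held by each class, in percent, against hours of auxin in the strains with disl-2(how27) and with wild-type disl-2, with 1 point per library (filled circles are replicate 1, open squares replicate 2) and the first 4 h shaded. In disl-2(how27) the Spermatogenic share goes from 32.8% and 32.2% at 0 h to 27.9% and 28.3% at 4 h, while the Oogenic share goes from 18.5% and 19.1% to 21.38% and 21.03%.

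The same order appeared in the single piRNAs. Spermatogenic piRNAs had a median log2 difference from 0 to 4 h of −0.34, with 1268 of 1473 below 0, beside 68.3% of all those tested. Oogenic piRNAs had a median of 0.0074, with 373 of 764 below 0, and those with no class a median of −0.12, with 1167 of 1875 below 0. At an unadjusted p under 0.05, 233 of 1473 Spermatogenic piRNAs lay lower (15.8%, beside 8.61% of all tested) and 1 higher (0.068%, beside 1.82%). Among the 764 Oogenic ones 7 lay lower (0.92%) and 29 higher (3.80%). None of these passed the adjusted threshold. Both the counts and the part below 0 moved with the 0 h library. Without 0 h replicate 1, 86.9% of Spermatogenic, 67.3% of Oogenic and 72.3% of unclassed piRNAs lay below 0. Without 0 h replicate 2 these were 73.1%, 22.3% and 40.6%. The class medians moved with the 0 h library used: without replicate 1 they were −0.50, −0.23 and −0.31 for the Spermatogenic, Oogenic and unclassed piRNAs, and without replicate 2 they were −0.16, 0.23 and 0.072. With libraries rescaled to equal medians they were −0.13, 0.22 and 0.10, so the sign for the Oogenic and unclassed piRNAs depends on the library and the scaling. In each of these settings the Spermatogenic median was the lowest of the 3 classes and the Oogenic median the highest.

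**Figure D3:**
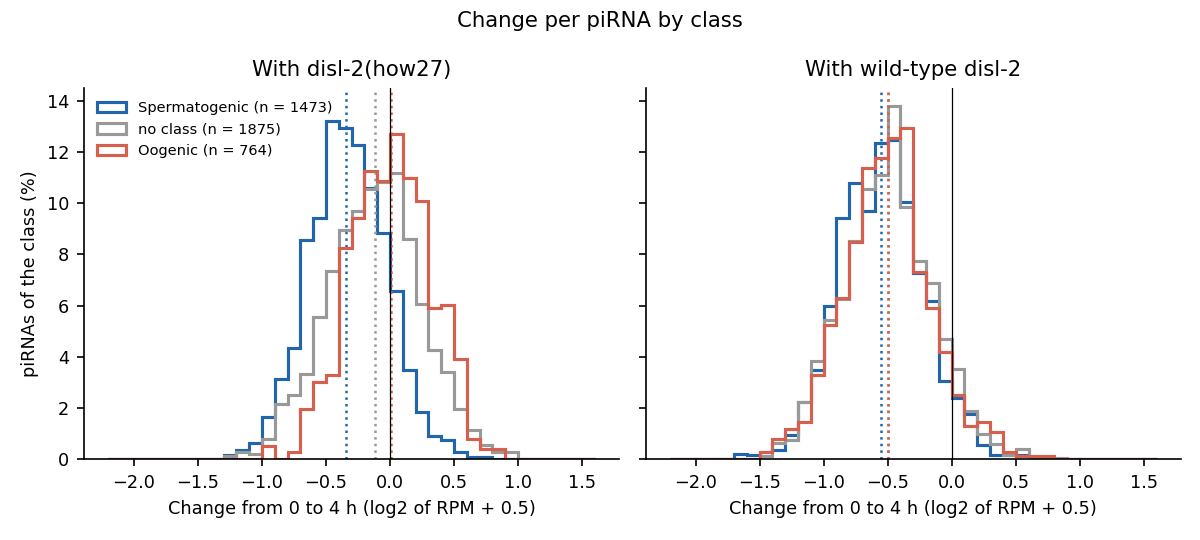
Distributions of the log2 difference from 0 to 4 h over the tested piRNAs of each class (1473 Spermatogenic, 764 Oogenic, 1875 with none), for the disl-2(how27) strain and for the strain with wild-type disl-2, with dotted lines at the class medians. In disl-2(how27) the medians are −0.34, 0.0074 and −0.12, and in the other strain −0.55, −0.50 and −0.50.

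Split into its steps, the window showed a Spermatogenic median below 0 in both, and an Oogenic median below 0 in the first and above 0 in the second. From 0 to 2 h limma called 0 piRNAs in either direction (0% called), with 123 lower (2.99%) and 13 higher (0.316%) at an unadjusted p under 0.05, and voom also called 0. In all, 3042 lay below 0 (74%), with non-overlapping libraries for 849 on the low side (20.6%) and 204 on the high side (4.96%). The class medians over that step were −0.19 for Spermatogenic, −0.15 for Oogenic and −0.14 for unclassed piRNAs. Without 0 h replicate 1 they were −0.35, −0.37 and −0.33, and without 0 h replicate 2 they were −0.046, 0.046 and 0.034, so the order of the classes and the Oogenic and unclassed signs in this step depend on the 0 h library. Without 2 h replicate 1 they were −0.26, −0.23 and −0.23, and without 2 h replicate 2 they were −0.13, −0.034 and −0.026. From 2 to 4 h limma and voom again called 0 (0% called), with 87 lower (2.12%) and 147 higher (3.57%) at an unadjusted p under 0.05 in limma. Here 2099 lay below 0 (51%), with non-overlapping libraries for 877 on the low side (21.3%) and 906 on the high side (22%). The medians over that step were −0.13 for Spermatogenic, 0.16 for Oogenic and 0.020 for unclassed piRNAs. Without 2 h replicate 1 they were −0.054, 0.26 and 0.13, and without 2 h replicate 2 they were −0.22, 0.044 and −0.089. Of the 147 that lay higher at an unadjusted p under 0.05, 64 were Oogenic and 7 Spermatogenic. These are 8.38% of the Oogenic and 0.475% of the Spermatogenic piRNAs tested, beside 3.57% of all. The steps share the 2 h libraries, so an error in those libraries enters both with opposite sign.

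By position, the piRNA clusters of chromosome IV had close medians, and the few piRNAs outside them lay on either side. Cluster a, nearer the left end of chromosome IV, held 515 tested piRNAs with a median difference from 0 to 4 h of −0.14. Cluster b, nearer the right end, held 3530 with a median of −0.18. With libraries rescaled to equal medians these became 0.081 and 0.033. Without 0 h replicate 1 the cluster a and b medians were −0.31 and −0.38. Without 0 h replicate 2 they were 0.0095 and 0.0092, so both signs depend on the 0 h library. The 62 on the rest of chromosome IV had a median of −0.23, with both 4 h libraries below both 0 h libraries for 28 of them (45.2%, beside 31.8% of all tested). That share was 49.7% for Spermatogenic, 11.8% for Oogenic and 25.9% for unclassed piRNAs, and the 62 were not split by class. The 5 on other chromosomes had a median of 0.31, with 0 of 5 below 0. Their shares of the summed level were 8.93% and 9.05% at 0 h against 8.88% and 9.08% at 4 h for cluster a, and 89.4% and 89.3% against 89.6% and 89.5% for cluster b. The exact permutation p of the share's slope, adjusted over the 7 shares, was 0.911 for cluster a, 0.441 for cluster b, 0.117 for the rest of chromosome IV and 0.28 for the other chromosomes. Ranked into quartiles by their level in steady-state disl-2(how27) animals without the degron, the piRNAs had medians of −0.16, −0.18, −0.21 and −0.16 from the least to the most abundant. The lowest and highest quartiles were at −0.30 and −0.38 without 0 h replicate 1, and at −0.017 and 0.062 without 0 h replicate 2. Among the 10 sequenced clones of chromosome IV with at least 100 tested piRNAs, the medians lay between −0.27 and −0.12. In each of these clones the Spermatogenic median lay below the Oogenic one. The quartiles and clones were described and not tested.

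Individual piRNAs are described next, none of them past the adjusted threshold. Of the 1762 tested piRNAs whose mean over the 0 and 4 h libraries reached 5 RPM, 571 had both 4 h libraries below both 0 h libraries and 269 had both above. Over all 4112 tested these numbers were 1307 (31.8%) and 508 (12.4%). Spermatogenic piRNAs made up 350 of the 571 and 21 of the 269, beside 610 of the 1762. Oogenic piRNAs made up 27 and 105, beside 374. The piRNAs named below are the 10 with the lowest and the 10 with the highest 4 h level relative to 0 h among these non-overlapping ones, and all lie in cluster b. The 5 RPM filter used the compared libraries, so a piRNA could pass through the time at which it was higher. Such were 21ur-3675, 21ur-8697 and 21ur-4912, whose 0 h means were 3.70, 3.57 and 3.56 RPM. For 21ur-2807, 21ur-3731, 21ur-4724, 21ur-10556, 21ur-4210, 21ur-5013 and 21ur-1072 the 4 h mean was under 5 RPM. No target or function is given for single piRNAs in the files.

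At the low end, 21ur-2807, an unclassed piRNA (WBGene00047434), was at 9.003 and 13.0 RPM at 0 h, 9.54 and 7.46 RPM at 2 h, and 5.46 and 4.00 RPM at 4 h. Each 4 h library was below every earlier one. Its log2 difference from 0 to 4 h was −1.13 ± 0.27 (SE, n = 2 at each time), with a 95% interval from −1.69 to −0.56, an unadjusted limma p of 0.000398 and an adjusted p of 0.439. The Spermatogenic 21ur-1385 (WBGene00048097) was at 10.4 and 16.4 RPM at 0 h, 10.8 and 6.27 RPM at 2 h, and 5.99 and 5.28 RPM at 4 h. Its 2 h libraries differed widely and its 4 h libraries were close. The difference was −1.15 ± 0.30 (SE, n = 2 at each time; limma adjusted p = 0.439).

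The lowest 4 h level relative to 0 h was that of the unclassed 21ur-3731, which was at 5.59 and 9.49 RPM at 0 h, 4.89 and 2.86 RPM at 2 h, and 2.65 and 2.86 RPM at 4 h, a difference of −1.26 ± 0.36. Its mean at 4 h was 0.365 times that at 0 h. The Spermatogenic 21ur-4321, the most abundant of the 10, was at 15.1 and 28.7 RPM at 0 h and at 9.65 and 10.4 RPM at 4 h. Its 0 h libraries were far apart, and the difference was −0.57 without 0 h replicate 2 and −1.47 without replicate 1. The other 6 were Spermatogenic as well: 21ur-4724 and 21ur-6842, which share reads with another locus, and 21ur-5013, 21ur-4210, 21ur-1072 and 21ur-10556. Their differences lay between −1.20 and −0.96. For 21ur-5013, 21ur-4210 and 21ur-1072 too the 0 h libraries were far apart, and without 0 h replicate 2 the differences were −0.43, −0.42 and −0.47. The 95% interval for 21ur-1072 ran from −2.03 to 0.037.

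At the high end, the unclassed 21ur-2937 (WBGene00049571) was at 10.9 and 11.0 RPM at 0 h, 13.8 and 15.1 RPM at 2 h, and 19.1 and 22.5 RPM at 4 h. The libraries of the 3 times did not overlap. Its log2 difference was 0.89 ± 0.23 (SE, n = 2 at each time), with a 95% interval from 0.43 to 1.36 and a limma adjusted p of 0.439. The unclassed 21ur-4614 was at 19.8 and 15.9 RPM at 0 h, 20.1 and 21.01 RPM at 2 h, and 31.4 and 35.0 RPM at 4 h, a difference of 0.88 ± 0.23. Most of that difference lay in the step from 2 to 4 h. The highest ratio was that of the unclassed 21ur-3675, at 3.73 and 3.67 RPM at 0 h and at 7.50 and 7.60 RPM at 4 h, a difference of 0.94 ± 0.29.

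The Oogenic members of the 10 were 21ur-1956 and 21ur-4698. 21ur-1956, which shares reads with another locus, was at 17.6 and 14.4 RPM at 0 h, 24.7 and 17.9 RPM at 2 h, and 25.8 and 32.7 RPM at 4 h. 21ur-4698 was at 14.1 and 10.5 RPM at 0 h, 13.7 and 15.0 RPM at 2 h, and 21.2 and 20.3 RPM at 4 h. In both, the 4 h libraries were above all earlier ones. The remaining 5, all unclassed, were 21ur-643, 21ur-8697, 21ur-4912, 21ur-2917 and 21ur-4852, and their log2 differences lay between 0.70 and 0.90. None of the 10 was Spermatogenic.

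**Figure D4:**
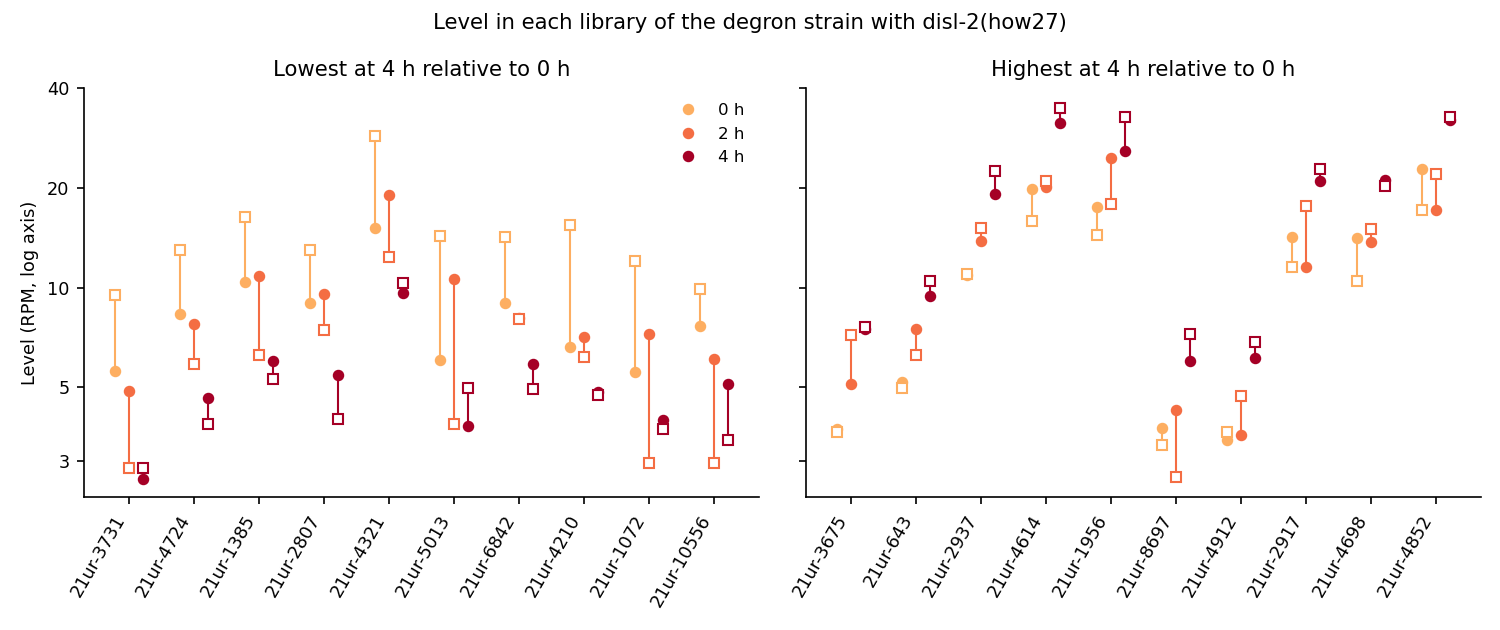
Levels in RPM on a log axis at 0, 2 and 4 h in disl-2(how27), with 1 point per library (filled circles are replicate 1, open squares replicate 2), for the 10 piRNAs lowest and the 10 highest at 4 h relative to 0 h, none past the adjusted threshold. 21ur-2807 goes from 9.003 and 13.0 RPM at 0 h to 5.46 and 4.00 RPM at 4 h, and 21ur-2937 from 10.9 and 11.0 RPM to 19.1 and 22.5 RPM.

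The 14 piRNAs whose mean over the 0 and 4 h libraries reached 100 RPM mostly stood at 4 h near or above their 0 h level. Of these, 7 had both 4 h libraries above both 0 h libraries and 1 had both below, beside 12.4% and 31.8% of all tested. The 14 were chosen by their level in the compared libraries themselves, so this split cannot show how abundant piRNAs behave. It did not extend to the most abundant quartile, which was ranked in libraries outside the comparison. There 15.3% lay above and 30.3% below, with a median of −0.16. The most abundant, the unclassed 21ur-3730, was at 233 and 280 RPM at 0 h, 144 and 209 RPM at 2 h, and 332 and 242 RPM at 4 h. These overlapped, with a difference of 0.15 ± 0.24 and a 95% interval from −0.34 to 0.64. The unclassed 21ur-1762 was at 129 and 129 RPM at 0 h, 113 and 139 RPM at 2 h, and 189 and 192 RPM at 4 h, a difference of 0.56 ± 0.21 (limma adjusted p = 0.439). The piRNA that lay lower was the unclassed 21ur-5234, which shares reads with another locus, at 115 and 112 RPM at 0 h and at 100 and 83.5 RPM at 4 h.

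Among the 5 most abundant piRNAs of the Spermatogenic class, 21ur-3359 was at 83.9 and 97.4 RPM at 0 h and at 73.7 and 61.1 RPM at 4 h, and 21ur-2332 was at 67.3 and 80.7 RPM and at 58.8 and 50.5 RPM. Both had 4 h libraries below the 0 h ones. 21ur-3775, 21ur-1051 and 21ur-10508, the last of which shares reads, overlapped between the times, with differences between 0.033 and 0.22. Among the 5 most abundant Oogenic piRNAs, 21ur-739, which shares reads, was at 162 and 247 RPM at 0 h and at 206 and 196 RPM at 4 h, a difference of 0.0085 ± 0.22 with a 95% interval from −0.44 to 0.46. 21ur-917 was at 70.4 and 78.8 RPM at 0 h and at 86.1 and 79.8 RPM at 4 h, just clear of each other. 21ur-3085, 21ur-3545 and 21ur-3380 overlapped. 21ur-1, a piRNA often probed in this field, was at 6.55 and 10.3 RPM at 0 h, 6.87 and 5.25 RPM at 2 h, and 7.86 and 7.01 RPM at 4 h, a difference of −0.14 ± 0.26.

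**Figure D5:**
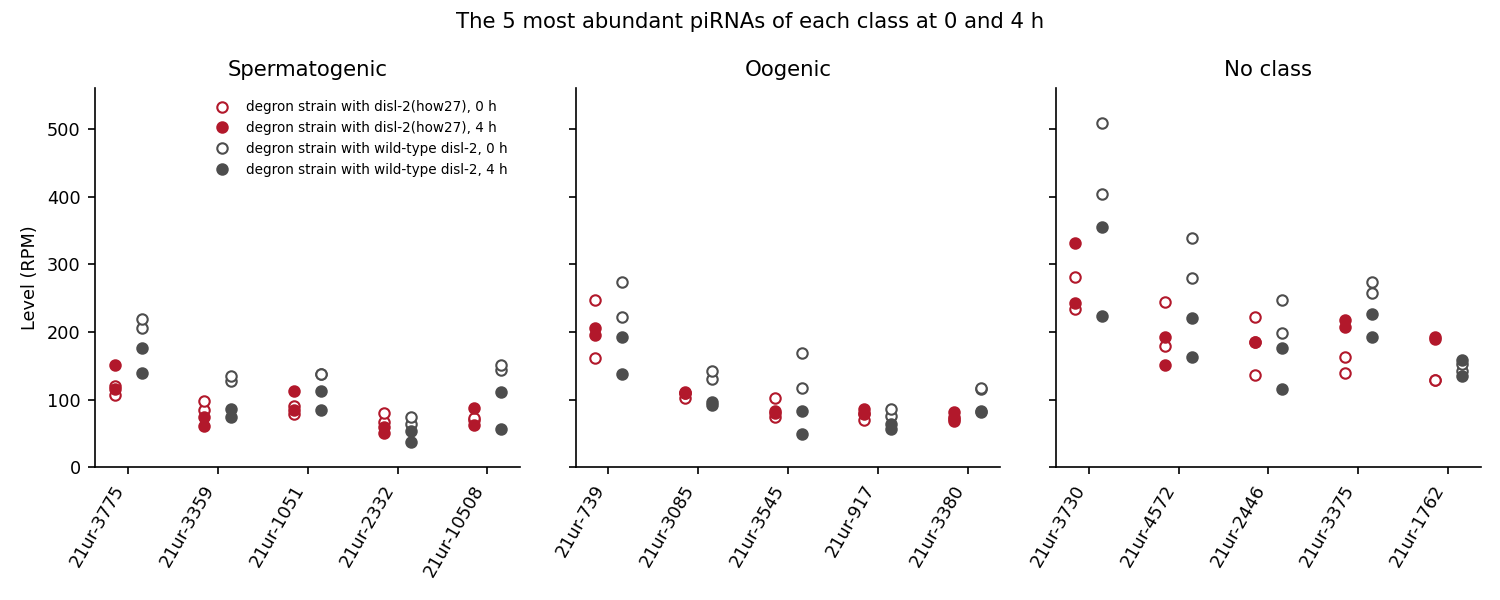
Levels in RPM at 0 and 4 h, with 1 point per library, of the 5 most abundant piRNAs at 0 h in each class, in the strains with disl-2(how27) and with wild-type disl-2. In disl-2(how27) the most abundant, 21ur-3730, is at 233 and 280 RPM at 0 h and 332 and 242 RPM at 4 h, and in the other strain at 403 and 509 RPM and 224 and 355 RPM.

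With wild-type disl-2 the pool stood lower at 4 h. Its sums were 44866 and 52383 RPM at 0 h, 34995 and 45718 RPM at 2 h, and 30256 and 34138 RPM at 4 h, so the 4 h libraries lay below both 0 h libraries. The 4 h mean was 66.2% of the 0 h mean, against 91.1% with disl-2(how27). The log2 differences were −0.59 and −0.12, and they differed by 0.47 ± 0.23 (SE, n = 2 in each of the 4 groups). The mean sum at 0 h was 38423 RPM with disl-2(how27) and 48625 RPM with wild-type disl-2. At 4 h the means were 35012 and 32197 RPM, so the strains stood further apart at 0 h than at 4 h. By limma, 580 of 4112 piRNAs fell from 0 to 4 h (14.1%) and 0 rose in the wild-type strain. At an unadjusted p under 0.05, 1522 lay lower (37%) and 3 higher (0.073%), and libraries did not overlap for 3115 on the low side (75.8%) and 53 on the high side (1.29%). The median difference there was −0.52, and 3842 piRNAs (93.4%) lay below 0.

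The difference between the strains was tested for each piRNA. Limma called 0 of 4112 in either direction (0% called), with a smallest adjusted p of 0.502, and voom also called 0. At an unadjusted p under 0.05, 330 differences were higher with disl-2(how27) (8.03%) and 0 were lower, and in voom 464 and 1. The median difference was 0.35 on the log2 scale, and 651 of 4112 (15.8%) lay below 0. Without 0 h replicate 1 of disl-2(how27) the median was 0.16 and without replicate 2 it was 0.53. Rescaling the libraries to equal medians, which removes any difference shared by most piRNAs, brought it to 0.057.

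By class, the median difference between the strains was 0.52 for Oogenic piRNAs, 0.39 for unclassed and 0.23 for Spermatogenic. Without 0 h replicate 1 of disl-2(how27) these were 0.30, 0.19 and 0.068, and without replicate 2 they were 0.75, 0.56 and 0.39. With libraries rescaled to equal medians they were 0.23, 0.098 and −0.059, so the Spermatogenic sign depends on the scaling. In the wild-type strain the 0 to 4 h medians were close to each other, at −0.55 for Spermatogenic, −0.50 for Oogenic and −0.50 for unclassed piRNAs, where disl-2(how27) had −0.34, 0.0074 and −0.12. The Spermatogenic share in the wild-type strain was 30.4% and 30.2% at 0 h and 29.6% and 28.8% at 4 h, and reached 23.4% and 22.2% at 12 h. In disl-2(how27) it was 28.5% and 28.6% at 12 h, close to its 4 h values. Whether the strains differ in how the share moved was not tested. By abundance the median difference between the strains lay between 0.21 in the lowest quartile and 0.51 in the highest.

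The largest single differences between the strains, among piRNAs whose changes did not overlap, were all in the direction of higher values with disl-2(how27). 21ur-10432, an unclassed piRNA, was at 6.09 and 6.82 RPM at 0 h and at 7.70 and 5.48 RPM at 4 h with disl-2(how27), and at 10.6 and 10.7 RPM and at 3.23 and 4.84 RPM with wild-type disl-2. The times overlapped in the first strain and the 4 h libraries were the lower in the second, a difference of 1.33 ± 0.41 (limma adjusted p = 0.599). The Oogenic 21ur-4922 was at 18.9 and 21.7 RPM at 0 h and at 26.5 and 27.3 RPM at 4 h with disl-2(how27), and at 35.4 and 39.0 RPM and at 16.1 and 24.0 RPM without. Its difference was 1.30 ± 0.33, with a 95% interval from 0.63 to 1.98 (limma adjusted p = 0.502). In the other direction 1 piRNA stood clear, the unclassed 21ur-5319, at −0.38 ± 0.37. Of the 4112 tested piRNAs, 266 had every 4 h library above the 0 h ones with disl-2(how27) and below them with wild-type disl-2. Taken singly, 508 (12.4%) lay above with disl-2(how27) and 3115 (75.8%) lay below with wild-type disl-2. Oogenic piRNAs made up 98 of the 266 (36.8%) and Spermatogenic ones 21 (7.89%), where 764 and 1473 of the 4112 tested are Oogenic and Spermatogenic. Of the 508, 167 were Oogenic and 48 Spermatogenic. The reverse pattern, below with disl-2(how27) (31.8% taken singly) and above with wild-type disl-2 (1.29%), held for 3 piRNAs. These are 21ur-516, 21ur-8905 and 21ur-6898, which are named because they are so few and were chosen after their values were seen.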

How the data were processed

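The deposited table gives each piRNA's level in RPM, which the authors normalized to sequencing depth. Trim Galore and Bowtie are named, with no versions, per the submitters' processing notes, and the genome build is not given in the sources used here. Of the 14681 rows, 1 piRNA was listed more than once, which left 14680 piRNAs. The most frequent value above 0 in a library was taken as 1 read, which gave its depth. On that scale low RPM values step by 1 read divided by 12 or a multiple of it. Between 86.1% and 87.4% of values above 0 in the 6 libraries were whole reads within 0.01 read, so the rest held reads shared between loci. The main test was therefore limma on RPM, and voom on the estimated reads was run only as an alternative. No column was left unmapped (0).

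Differences were fitted with limma 3.58.1 (R 4.3.3) over all 20 time-course libraries on log2(RPM + 0.5). The prior variance was trended, with 14.0 prior and 10 residual degrees of freedom, and a piRNA entered if its mean reached 1 RPM. This scale understates the difference of low piRNAs. Levels were not rescaled, since rescaling would remove a loss shared by most piRNAs. Sums and shares were tested by two-sided exact permutation over libraries, and 2 libraries against 2 cannot give a p below 0.333. Other values came from Python 3.11.15 with pandas 2.3.3, numpy 2.4.6 and matplotlib 3.10.9. The fit was run on simulated data with a common spread and no shift between replicate libraries. It was not tried on a gap between replicates like that at 0 h.

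Named piRNAs were, among those with a mean of at least 5 RPM and non-overlapping libraries, the 10 lowest and 10 highest at 4 h relative to 0 h, those lower with at least 100 RPM, the 5 most abundant per class, 21ur-1 and the 5 largest strain differences in each direction. 5 piRNAs listed under other class labels enter the totals only. Members and lists were chosen with earlier results of these data known. No sequences are shown. The alternatives tried were pseudocounts of 0.1 and 2, a filter of 5 RPM or none, equal medians, a replicate block, the compared libraries alone, voom, no shared reads, a slope over the 3 times, and leaving out each library.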

Additional observations from a re-analysis of the deposited data

Results flagged for a closer look

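For 7 of the 42 named piRNAs the 0 and 4 h libraries did not overlap within either strain, and the strains went opposite ways. All 7 lay higher at 4 h with disl-2(how27) and lower with wild-type disl-2. Among all 4112 tested piRNAs this held for 266, and the reverse for 3. Taken singly, 12.4% of the 4112 lay above with disl-2(how27) and 75.8% below with wild-type disl-2. For the reverse the single shares were 31.8% and 1.29%. Shares of that size alone would give some piRNAs of each pattern, so the counts do not show that the strains' directions are linked. Of the 7, 21ur-3375 and 21ur-917 were named for their abundance. The others were named for a large rise or strain difference, so their direction follows in part from that choice. The differences of the 7 between the strains on the log2 scale were 1.30 for 21ur-6030, 1.30 for 21ur-643, 1.28 for 21ur-1956, 1.30 for 21ur-4922, 1.29 for 21ur-1352, 0.83 for 21ur-3375 and 0.56 for 21ur-917. None passed the limma test of that difference, with adjusted p-values between 0.502 and 0.66. 21ur-6030, 21ur-1956 and 21ur-3375 share reads with another locus. The largest of these in RPM, 21ur-3375, was at 163 and 140 RPM at 0 h and 218 and 208 RPM at 4 h with disl-2(how27), and at 257 and 274 RPM and 192 and 227 RPM with wild-type disl-2.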

How the results depend on the processing

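From 0 to 4 h limma called 0 piRNAs in either direction under every alternative except no filter, which called 5 lower and 5 higher, all with a mean of at most 0.0226 RPM. No filter also gave 8 lower and 1 higher from 0 to 2 h, 1 lower and 6 higher from 2 to 4 h, and 1 lower and 2 higher for the difference between strains, whose median became 0.092. Equal medians gave median differences of 0.039 from 0 to 4 h, 0.080 from 2 to 4 h and 0.057 between strains, since they remove what most piRNAs share. A filter of 5 RPM, which tests fewer piRNAs, gave 0.081 from 2 to 4 h. Leaving out each library in turn, the median ranged from −0.37 to 0.0085 from 0 to 4 h, from −0.35 to 0.014 from 0 to 2 h, from −0.11 to 0.090 from 2 to 4 h and from 0.16 to 0.53 between strains, with 0 to 2 calls higher from 2 to 4 h. The 2 came without 2 h replicate 2 (21ur-379 and 21ur-6914, named after their values were seen). In log2 per h, the slopes ranged from −0.059 to 0.019 for the total, from −0.015 to 0.073 for the Oogenic sum, from −0.045 to 0.033 for the unclassed sum, from −0.064 to 0.018 for the cluster a sum, from −0.058 to 0.019 for the cluster b sum and from −0.0044 to 0.0046 for the cluster a share. The highest values for these sums came without 0 h replicate 2. The median piRNA in place of the sum gave −0.0062 for the Oogenic level, 0.013 for the cluster a share and −0.0054 for the cluster b share. Without shared reads these shares had slopes of 0.0056 and −7.4e-05, and without the 10 most abundant piRNAs the cluster a share had 0.0034. Same-numbered libraries did not deviate together (correlations −0.19, −0.069 and −0.14), and with the replicate number as a block limma called 0 with a median of −0.18. Of 42 named piRNAs, 32 kept their sign throughout. With equal medians 21ur-1 was at 0.079, 21ur-3545 at 0.11 and 21ur-5319 at 0.20, and leaving out libraries the range crossed 0 for 21ur-3730 (−0.080 to 0.37), 21ur-1 (−0.44 to 0.17), 21ur-2446 (−0.26 to 0.44), 21ur-3545 (−0.34 to 0.13), 21ur-3085 (−0.0025 to 0.11), 21ur-3380 (−0.086 to 0.17), 21ur-10508 (−0.21 to 0.28), 21ur-5319 (−0.28 to 0.25), 21ur-739 (−0.30 to 0.31) and 21ur-10432 (−0.22 to 0.24). The causes were not tested. With 2 libraries a time, differences smaller than about 0.63 on the log2 scale are within the 95% interval of a typical piRNA.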
